A study of Mus musculus with 8 samples.

Results

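Shared intergenic H3K27ac regions are stretches of chromatin outside genes that carried an acetylation peak in both proliferating and differentiating Oli-neu cells. Acetylation of lysine 27 of histone H3 (H3K27ac) was mapped by chromatin immunoprecipitation and sequencing in Oli-neu, a mouse line of the oligodendrocyte lineage that the labels describe as embryonic oligodendrocyte progenitors of strain C57BL/6. Proliferating cells were grown with bFGF and Pdgf-BB, and differentiating cells were kept, by the labels, for 1 day without growth factors and with 1 μM of the erb inhibitor PD174265, whereas the culture methods of the study give a longer time. Both states were cultures of this 1 line, and each gave 1 library. The 6 ATAC-seq samples of the series, 3 with a control siRNA and 3 with an siRNA to Padi2, were not analysed here. The peaks of the 2 deposited lists were merged into 48416 regions, and the members were chosen by their peak calls and position. A member holds a peak of each list, overlaps no annotated gene of any biotype and lies outside the promoter region, taken as the sequence from 3000 bp before to 100 bp after a protein-coding TSS (transcription start site). Of all merged regions, 8413 (17.4%) held peaks of both lists, and 1493 of these were members, beside 3103 shared regions within genes and 3817 at promoters. Among the 17079 intergenic regions the share found in both lists was 8.74%, since 8396 were found in the proliferating list alone and 7190 in the differentiating list alone. With 1 library per state there is no spread between replicates, so no test between the states was run and all differences are descriptions.

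H3K27ac is deposited on nucleosomes by the acetyltransferases p300 and CBP and marks active promoters and active enhancers. Enhancers are bound by transcription factors and act on the promoters of genes that can lie far away along the chromosome, so an acetylated region between genes is often read as a candidate enhancer, and its nearest gene is only a candidate target. In the oligodendrocyte lineage such elements are known around genes for the factors Sox10, Olig2 and Myrf and around myelin genes. A peak by itself measures acetylated chromatin and neither enhancer activity nor its target.

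Some of the sequences behind the members are shown here, because the members turned out to be of unlike kinds. The central 300 bases of the strongest member with under 50% of its bases marked as repeat are given for 3 gene groups, together with the strongest member that is mostly found at 1 place of the genome, near Pak3, and the members nearest to Mog and Olig2, which were chosen for these genes after their values were seen. Bases are those of GRCm38 (mm10), read 5′ to 3′ on the plus strand, and capitals mark matches to any of 15 short motifs searched.
Nxph1 region, chr6:9889818-9890117: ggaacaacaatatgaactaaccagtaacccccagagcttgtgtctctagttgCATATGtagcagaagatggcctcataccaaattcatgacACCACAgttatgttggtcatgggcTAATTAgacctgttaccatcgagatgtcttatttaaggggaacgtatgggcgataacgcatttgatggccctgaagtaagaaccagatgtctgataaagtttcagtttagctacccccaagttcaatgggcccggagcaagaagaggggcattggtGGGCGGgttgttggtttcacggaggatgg
Irs2 region, chr8:10960449-10960748: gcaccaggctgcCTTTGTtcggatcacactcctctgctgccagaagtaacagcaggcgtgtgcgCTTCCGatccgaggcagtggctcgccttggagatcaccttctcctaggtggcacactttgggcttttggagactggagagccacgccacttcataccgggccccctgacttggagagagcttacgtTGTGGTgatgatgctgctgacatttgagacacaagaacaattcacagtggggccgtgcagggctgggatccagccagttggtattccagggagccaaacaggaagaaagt
Batf3 region, chr1:191120907-191121206: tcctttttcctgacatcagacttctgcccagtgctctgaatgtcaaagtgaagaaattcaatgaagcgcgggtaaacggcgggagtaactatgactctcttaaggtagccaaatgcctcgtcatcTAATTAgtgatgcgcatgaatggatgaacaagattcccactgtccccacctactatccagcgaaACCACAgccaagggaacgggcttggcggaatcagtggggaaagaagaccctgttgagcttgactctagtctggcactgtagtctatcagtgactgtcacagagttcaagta
Pak3 region, chrX:143482908-143483207: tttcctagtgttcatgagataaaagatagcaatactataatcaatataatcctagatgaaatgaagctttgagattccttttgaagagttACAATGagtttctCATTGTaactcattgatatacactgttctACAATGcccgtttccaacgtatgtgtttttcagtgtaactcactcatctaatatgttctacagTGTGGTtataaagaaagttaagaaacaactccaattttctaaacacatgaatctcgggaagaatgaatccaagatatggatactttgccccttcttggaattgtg
Mog region, chr17:37028610-37028909: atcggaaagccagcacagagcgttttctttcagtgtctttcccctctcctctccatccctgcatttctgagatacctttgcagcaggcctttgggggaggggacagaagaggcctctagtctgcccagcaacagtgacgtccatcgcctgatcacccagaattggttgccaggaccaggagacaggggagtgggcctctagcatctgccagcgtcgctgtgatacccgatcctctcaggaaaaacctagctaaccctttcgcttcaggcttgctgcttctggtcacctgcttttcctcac
Olig2 region, chr16:91191857-91192156: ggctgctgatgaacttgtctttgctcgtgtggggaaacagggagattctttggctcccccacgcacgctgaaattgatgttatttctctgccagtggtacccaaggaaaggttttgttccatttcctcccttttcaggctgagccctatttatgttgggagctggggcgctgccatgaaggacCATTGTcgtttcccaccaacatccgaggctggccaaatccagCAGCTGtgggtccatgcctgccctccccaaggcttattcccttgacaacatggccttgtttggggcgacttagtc
The window near Mog, a myelin protein gene, holds none of the 15 motifs, whereas the Olig2 window holds 1 match to the E-box CAGCTG and 1 to the SOX motif ACAATG on the minus strand. In contrast, 29.9% of the 16-base words of the Nxph1 region also occur in the mitochondrial genome. Of the sampled 32-base words of the Batf3 region, 28.3% occur at more than 1 place of the genome, the mitochondrial genome included. Ribosomal sequence was searched only in the piece of its repeat assembled on chromosome 17, and whether the Batf3 region matches the rest of that repeat was not tested.

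Members were wider than the intergenic regions of 1 list and similar in fold enrichment, the caller's ratio of signal to its local background. Their median width was 1339 bp (quartiles 911 and 1821 bp, range 279 to 4339 bp), against 564 bp for intergenic regions of 1 list. A merged region joins the extents of both peaks and a wider peak is met more easily, so width is in part set by the rule. Together the members covered 2107 kb. Nearly all (1483) joined 1 peak of each list, and in the median member 49.6% of the bases lay in both peaks. In 2 members, near Prkd1 and Igsf11, the peaks touched without sharing a base. The median fold enrichment was 3.37 in the proliferating list (range 1.92 to 18.1) and 3.20 in the differentiating list (range 1.85 to 16.3). Intergenic regions of 1 list had medians of 3.29 and 3.06, shared genic regions 3.41 and 3.22, and shared promoter regions 3.68 and 3.5. Where 2 fold enrichments are given for a region, the first is that of the proliferating list. Each was also ranked as a percentile within its own list, and the lower of the 2 percentiles is used as the strength of a member. Read numbers per peak are not part of the lists. The depth of each peak is therefore unknown, and a fold enrichment has no interval.

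In base composition the members lay between intergenic regions of 1 list and shared regions at promoters. Their median GC content was 47.0%, against 43.4% in intergenic regions of 1 list, 50.4% in shared genic and 61.2% in shared promoter regions. The median ratio of observed to expected CpG was 0.207 in members and 0.773 in shared promoter regions. Of the members, 74 (4.96%, 95% exact binomial interval 3.91 to 6.18) had a ratio of at least 0.6, as CpG islands have, against 0.815% (0.680 to 0.969) of the intergenic regions of 1 list and 81.6% (80.4 to 82.9) of shared promoter regions. All such intervals cover counting of regions only. The median share of bases marked as repeat was 16.6% in members and 20.8% in intergenic regions of 1 list, and 172 members (11.5%) were more than 50% repeat.

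The strongest members were narrow and often repetitive. The member of highest strength, at chr12:15253561-15253865, was 305 bp wide, had fold enrichments of 18.1 and 16.3, lay 563 kb from Trib2, which encodes a pseudokinase, and consisted entirely of sequence marked as repeat. The next was the region near Pak3, a p21-activated kinase gene, shown above (16 and 15.4). It was followed by a region near Rab10 (15 and 14.3) at chr12:3109654-3110333, by a region near Dpy19l1 (14.2 and 13.9), and by a region near Sulf1 (12.7 and 11.1). None of these 5 was wider than 680 bp. The repeat shares near Pak3, Rab10, Dpy19l1 and Sulf1 were 47.3%, 51.9%, 8.62% and 29.3%. Such values were not limited to members, as the highest in shared genic regions were 16 and 14.7. When members were ranked by strength and divided into 5 groups of 298 or 299, the median width was 1569 bp in the weakest group and 865 bp in the strongest, and the median repeat share 16.9% and 25%. In the strongest 50 members the median width was 615 bp, the median repeat share 52.3% and the median distance to a TSS 99.5 kb. None of these 50 exceeded 2000 bp, a width that 262 members did. The fold enrichment of a broad peak is a mean over its length, so strength and width are not independent measures. The part this plays in these values was not tested.

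Sequence found at several places of the genome was concentrated at both ends of the strength scale. More than 50% of the sampled 32-base words occurred at more than 1 place in 115 members (7.70%, interval 6.40 to 9.17), close to the 7.46% of intergenic regions of 1 list and above the 1.23% of shared promoter regions. This share was 10.4% in the weakest group, 4.36%, 1.67% and 4.70% in the 3 middle groups and 17.4% in the strongest, and it reached 44.0% (22 members) in the strongest 50. The authors kept uniquely mapped reads and removed blacklisted regions, and how reads from near-identical copies were placed in these members was not tested.

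Telomere repeats stood out among strong members. At least 4 repeats in a row were present in 54 members (3.62%, interval 2.73 to 4.69), against 23 of the 15586 intergenic regions of 1 list (0.148%), 32 shared genic regions and 3 shared promoter regions. Of these 54 members, 42 (77.8%) lay above the 90th percentile in both lists, compared with 106 of the 1439 members without them (7.37%). On 16 of 21 chromosomes a member reached the last assembled base before the gap that closes the chromosome. These 16 members were 486 to 1298 bp wide, held 15 to 114 copies of the hexamer, and had fold enrichments of 4.09 to 12 in the proliferating and 4.10 to 12.7 in the differentiating list. The highest values at a chromosome end were 12 and 11.9 on chromosome 3 and 12 and 12.7 on chromosome 13. The lowest were 4.09 and 4.10 on chromosome 6. On chromosome 17 the end carried a region in the differentiating list alone (4.26), and no region was called at the ends of chromosomes 4, 9, 15 and Y. The other 38 members with telomere repeats lay elsewhere in the chromosomes.

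A few members, most of them strong, carried other sequence that exists outside its site in many copies per cell. In 4 members over 20% of the 16-base words matched the mitochondrial genome. They lay 1198 kb from Galc (10.1 and 10.5, with 47.0% of words matching), 1766 kb from G6pd2 (6.89 and 8.60, 43.5%), 941 kb from Nxph1 (4.78 and 6.61, 29.9%) and 12.7 kb from Abcb11 (5.0 and 6.84, 21.4%). All 4 had the higher value in the differentiating list. No intergenic region of 1 list passed this share, but 5 shared genic regions (0.161%) and 2 shared promoter regions (0.0524%) did, against 0.268% of members. Matches to the assembled piece of the 45S ribosomal RNA repeat on chromosome 17 covered 64% of the words of a member near Samd9l (6.89 and 6.14), 30.6% near Chst11 (4.16 and 3.18, a lower percentile of 55.3) and 17.1% near Cd209a (7.30 and 3.87). Here the proliferating value was the higher in all 3.

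**Figure D1:**
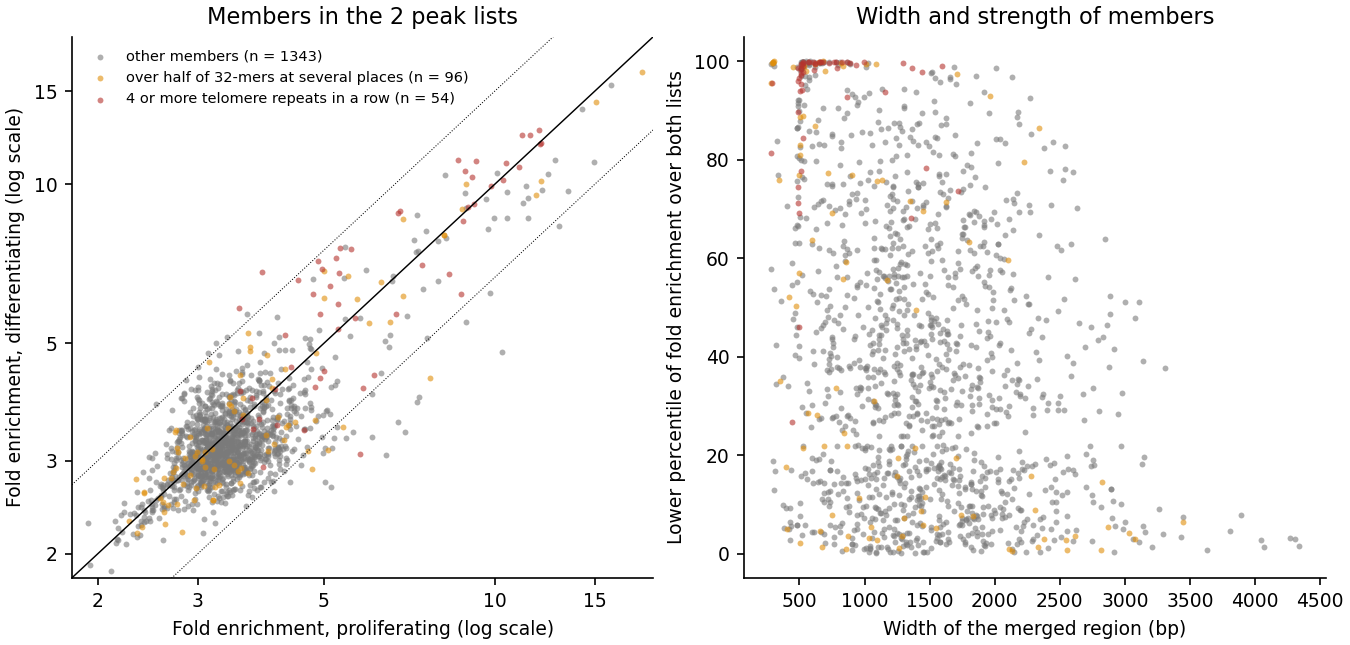
Fold enrichment of the 1493 members in the proliferating (x) and differentiating (y) peak list on log axes, left, with equality as a solid and 1.5-fold differences as dotted lines, and width in bp against the lower percentile of fold enrichment, right. Each point is 1 member; the 54 members with telomere repeats (red) and the 96 others with over 50% of their 32-base words at several places (orange) include many of the narrow, strong members, and the widest members are weak.

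The widest members showed the opposite profile, low and mostly unique in sequence. The widest, at chr12:111691024-111695362, spanned 4339 bp with fold enrichments of 2.46 and 2.33 and lay 12.9 kb downstream of the start of Trmt61a, a tRNA methyltransferase gene. A region of 4307 bp near Gxylt1 had 2.93 and 2.48. A region of 4267 bp lay 15.1 kb upstream of Notch1, a receptor that holds precursors undifferentiated (2.61 and 2.69). The next 2 were a region of 4071 bp 27.8 kb upstream of Wnt7b, a Wnt ligand (2.41 and 2.42), and one of 4049 bp near Zfp957 (2.59 and 2.71). In all 5 the lower percentile was at most 3.05, and at most 8.02% of the 32-base words were found at more than 1 place.

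Members lay nearer to protein-coding genes than intergenic regions called in 1 list did. The median distance from a member to the nearest protein-coding TSS was 47.7 kb (95% interval of the median 44.0 to 53 kb, quartiles 18.2 and 152 kb), whereas it was 89.3 kb (85.1 to 93.2) in the proliferating list alone and 89.2 kb (85.2 to 93.0) in the differentiating list alone. Within 10 kb of a TSS lay 211 members (14.1%, interval 12.4 to 16), against 8.77% (8.33 to 9.23) of the intergenic regions of 1 list, and within 100 kb 999 members (66.9%, 64.5 to 69.3), against 52.6% (51.9 to 53.4). Only 26 members (1.74%) were more than 1000 kb away, compared with 4.00% of the others. The side did not separate the sets: 952 members (63.8%, 61.3 to 66.2) lay upstream of the nearest start and 63.7% (63.0 to 64.5) of the intergenic regions of 1 list. Downstream positions are limited because the gene body itself is excluded. The nearest member lay 1.13 kb and the farthest 2440 kb from a TSS. These intervals count regions within 1 pair of libraries. The sets also differ in their spread over the chromosomes. Chromosomes 1, 10 and 15 held 2710, 2071 and 2154 of the 17079 intergenic regions, and 154, 116 and 124 of the 1493 members. The parts that width and chromosome play in the difference were not tested.

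**Figure D2:**
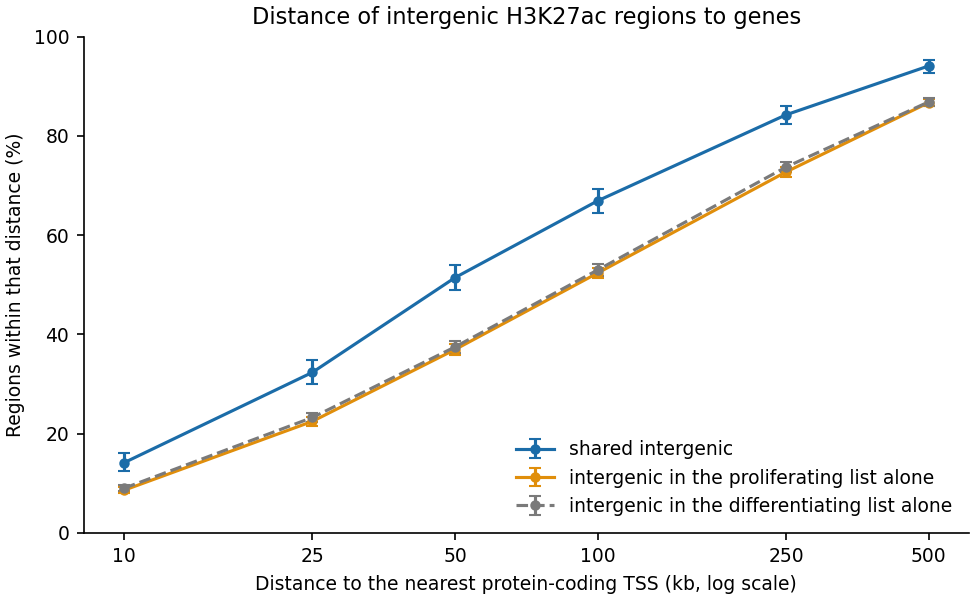
Share of regions (%) within a given distance (kb, log scale) of the nearest protein-coding TSS for members and for intergenic regions of the proliferating or the differentiating list alone; bars are 95% exact binomial intervals. The curve of the members lies above the other two at every distance, with 51.4% of members within 50 kb.

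The farthest members lay in gene deserts and were all strong and narrow. They were a region of 514 bp 2440 kb upstream of Pcdh20, a protocadherin gene (4.79 and 6.2), one of 545 bp 2140 kb upstream of Cdh20 (5.26 and 4.24), the mitochondrial match 1766 kb from G6pd2, one of 487 bp 1728 kb from Sel1l (5.34 and 7.58) and one of 279 bp 1559 kb from Csmd3 (7.68 and 4.3). Repeat shares ranged in these 5 from 21.1% to 97.5%. The share of sampled words found at more than 1 place was 76% near Csmd3, 54.3% near Sel1l and 51.7% near G6pd2. It was 13.5% near Cdh20 and 12.2% near Pcdh20. The region near Sel1l held 40 copies of the telomere hexamer and that near Pcdh20 held 14, against 2 near G6pd2 and 0 near Cdh20 and Csmd3. At the other limit of the rule, the members nearest to a gene edge were a region near Ptprc, which ended against an annotated gene with 0 bases between (3.10 and 3.64), and one near Sertad1 with 1 base between (3.43 and 3.91). Just outside the rule, shared regions near F3 and Ogfrl1 overlapped a gene by 14 and 43 bases, with values of 2.70 and 2.66 and of 4.16 and 3.71.

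When start sites of every biotype were counted, a noncoding or pseudogene start was nearest for most members. The nearest start was that of a protein-coding gene for 449 members (30.1%), of a processed pseudogene for 385 (25.8%), of a lincRNA for 300 (20.1%) and of a TEC, an unclassified transcript to be experimentally tested, for 73 (4.89%). The window of the same size as the promoter region, placed at the starts of long noncoding RNAs and TEC transcripts, took in 26 members (1.74%), against 1.78% of the intergenic regions of 1 list. Within 1000 bp of any gene lay 105 members (7.03%, interval 5.79 to 8.45) and 4.80% (4.47 to 5.15) of the others.

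The 1493 members had 1133 distinct nearest protein-coding genes, which is 5.16% of the 21938 genes on the nuclear chromosomes. Of these, 899 were nearest to 1 member and 234 to 2 or more, and 24 were nearest to 4 or more. How much intergenic sequence a gene commands sets how many members it can have, so each gene's territory was measured as the intergenic, assembled sequence closer to its TSS than to any other protein-coding TSS. Over all genes there were 1.08 members per Mb of such territory.

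Rab28, which encodes a small GTPase of the Rab family, was nearest to the most members, 15, in a territory of 0.915 Mb (16.4 per Mb) that also held 93 regions of 1 list. All 15 lay downstream of it, between 113 and 908 kb away, with fold enrichments of 2.17 to 3.46 in the proliferating and 2.12 to 3.42 in the differentiating list. Its neighbour Hs3st1, a heparan sulfate sulfotransferase gene, had 7 members (6.32 per Mb), 95.8 to 798 kb upstream, beside 108 regions of 1 list. Both genes border the same stretch of chromosome 5. Cdh9, a cadherin gene, had 8 members in 2.53 Mb (3.16 per Mb), beside 111 regions of 1 list. Of these 8 members, 6 lay between 1272 and 1519 kb upstream. Phlda1 was next to 6 members in only 0.199 Mb, beside 12 regions of 1 list. Its density of members, 30.1 per Mb, was the highest of these genes, and all 6 lay 9.48 to 166 kb downstream of its start. Phlda1 is induced by growth factor signalling and encodes a protein with a pleckstrin homology-like domain. Speer4f2, of a rodent gene family with many copies, had 6 (18.2 per Mb), beside 31 regions of 1 list. Gm3376, on chromosome Y, had 6 members and no region of 1 list, 4 of them with over 70% of 32-base words at more than 1 place. Except for Gm3376 (10.5 per Mb), the territories of these genes were rich in intergenic regions as a whole. They held 47.0 to 118 per Mb, against 12.3 over all chromosomes.

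Some factors that set oligodendrocyte identity were next to a member and others were not. Of 38 genes for oligodendrocyte transcription factors, 13 (34.2%, 95% exact interval 19.6 to 51.4) were nearest to at least 1 member, against 5.16% of all protein-coding genes. Their median territory was 88.0 kb, against 12.3 kb over all genes, and they had 2.36 members per Mb, fewer than the precursor (3.17), myelin (5.30) and immediate early genes. Of their intergenic regions 16.2% were in both lists, against 8.74% overall. The share of genes with a member was 18.4% when the peaks had to overlap reciprocally by at least 0.5, and 2.63% when −log10 q had to reach 5 in each list. No member had Sox10, Myrf, Olig1 or Nkx2-2 as its nearest gene. Zeb2, which encodes a factor required for myelination, had 5 members 166 to 1548 kb upstream of its start, with fold enrichments from 2.78 and 3.39 to 4.28 and 2.96. Hes1, a Notch target that restrains differentiation, had 3 members and no region of 1 list, the strongest 5.50 kb downstream of its start (4.48 and 3.78). Tcf12 and Tcf4, which encode E proteins, the partners of Olig and other bHLH factors, had 2 each, at 20.8 and 48.2 kb upstream of Tcf12 and at 327 and 366 kb upstream of Tcf4. Olig2 had 1 member, 31.9 kb upstream, at chr16:91190806-91193534 (3.09 and 2.90), among 6 regions of 1 list. Sox4, Sox2, Sox9, Nfia, Yy1, St18 and Prrx1 also had 1 member each. The member of Sox9 lay 771 kb from it (7.26 and 7.45) and was 70.1% repeat.

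Precursor and myelin genes were both represented. Of 36 precursor genes, 12 (33.3%, interval 18.6 to 51) had a member, and 16.7% did under the reciprocal overlap of 0.5. The 2 of Pdgfra, the receptor that drives precursor proliferation, lay 45.9 and 194 kb downstream of its start (2.95 and 2.96, and 3.07 and 3.03). Ptprz1, a receptor phosphatase gene, had 2 wide members 40.3 and 79.1 kb upstream (3.22 and 3.89, and 3.36 and 2.85), and Sulf2, an extracellular sulfatase gene, had 2 at 105 and 197 kb. Nxph1, which encodes a neurexin ligand, had the mitochondrial match and a second strong member (11.2 and 9.21) that was 91.2% repeat. The 1 member of Sox3, also among the 12 genes, was strong (8.14 and 8.03) and 100% repeat. Of its 32-base words, 96.3% occurred at more than 1 place. Of 36 myelin genes, 8 (22.2%, 10.1 to 39.2) had 1 member each. Those of Mog (3.67 and 3.63) and Opalin (3.44 and 3.76), a membrane protein gene of myelinating cells, lay 4.78 and 4.17 kb upstream of their starts. Nfasc, which encodes neurofascin, had one at 23.8 kb (3.20 and 3.56) and Enpp6, a marker of newly forming oligodendrocytes, one at 108 kb (3.19 and 3.84). The members of Mal, Bcas1, Cldn11 and Ugt8a lay 15.8 to 82.2 kb away.

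Genes of growth factor signalling and of its feedback also had members. Of 53 growth factor receptors and ligands 9 had one (17.0%, interval 8.07 to 29.8). Hgf, the ligand of the Met receptor, had 5, but with fold enrichments of only 2.32 to 2.94 and 2.25 to 2.97 and inside the densest stretch of chromosome 5. Erbb4, a neuregulin receptor, had 1 at 48.7 kb upstream (3.33 and 3.60) and Irs2, an adaptor of insulin signalling, had 1 at 47.6 kb (4.25 and 3.56). Tgfa, Kitl, Hbegf, Lifr and Fgfr3 had 1 each, besides the 2 of Pdgfra. Of 27 genes of MAPK and ERK feedback, 6 had a member (22.2%, 8.62 to 42.3) at 3.12 per Mb, and 7.41% did under the reciprocal overlap of 0.5. Besides Phlda1, Errfi1, an inhibitor of ErbB receptors, had 2 members and no region of 1 list, at 17.7 kb downstream (4.50 and 3.29) and 94.9 kb upstream (4.18 and 2.96). Both were higher in the proliferating list, by percentiles of 95.4 against 64.4 and of 91.3 against 31.2. Spry2, another feedback inhibitor, had 2 (4.15 and 3.19, and 3.25 and 3.20). Etv4 had 1, as did Dusp5 and Dusp10, which encode phosphatases of MAP kinases.

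Immediate early and AP-1 genes, which respond within minutes to growth signals, had members at 11 of 36 genes (30.6%, interval 16.3 to 48.1) and 4.52 members per Mb. Their territories were also rich in regions of 1 list, at 29.6 per Mb against 11.3 over all genes. Myc had 4 members, 2 of them within 73.9 kb upstream and the others 557 and 895 kb downstream, with fold enrichments of 2.72 to 3.14 in the proliferating and 2.51 to 3.19 in the differentiating list, beside 50 regions of 1 list. Mycn had 3 with only 1 region of 1 list, the strongest 131 kb downstream (3.65 and 4.08). Klf4 had 2 at 118 and 396 kb upstream (3.63 and 3.73, and 3.29 and 4.19). The 2 of Fosl2 were among the weakest members (2.38 and 2.27, and 1.92 and 2.29). Fos had 1 at 49.8 kb, and Nr4a1, Ier3, Egr4, Btg2, Nr4a2 and Batf3 had 1 each, that of Batf3 being the one not compared with the whole ribosomal repeat.

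Wnt, Notch and TGF-beta genes had members at 13 of 66 genes (19.7%, interval 10.9 to 31.3). Wnt7b had 4, all 16.7 to 51.7 kb upstream in a territory of 52.4 kb, together with 2 regions of 1 list. Fzd9, a Wnt receptor gene, had 3 members 6.83 to 23.0 kb upstream and no region of 1 list. Axin2, a feedback inhibitor of Wnt signalling, had 2, one of them strong (9.97 and 8.61) with 2.33% repeat, 91.1 kb downstream. Bmp7 had 2, the stronger 17.7 kb upstream (5.22 and 4.71). Of 57 genes of cholesterol and lipid synthesis, pathways that supply myelin membrane, 7 had a member (12.3%, 5.08 to 23.7). Scd2, a fatty acid desaturase gene, had 3 and no region of 1 list, at 25.8 and 7.73 kb upstream and 17.5 kb downstream. The values were 3.94 and 3.29, 3.78 and 3.18, and 3.95 and 3.02, the proliferating one being higher each time. Elovl5 and Elovl6, which elongate fatty acids, and Mvk, of the mevalonate pathway, had 1 each.

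Chromatin regulators had members at 8 of 68 genes (11.8%, interval 5.22 to 21.9) and 4.57 members per Mb, in territories with a median of 6.49 kb. Chd7, a remodeller needed for myelin gene expression, had 3 members, the strongest 42.7 kb upstream (3.84 and 4.27). Chd2 had 2, and Arid1b had 2 of which one was strong (11.4 and 9.93) and 50.7% repeat. Of 53 cell cycle genes 7 had 1 member each (13.2%, 5.48 to 25.3), among them Ccnd1, Cdkn2b, Mdm2 and Aurkb. Of 50 cytokine, chemokine and NF-kappaB genes 4 had one (8%, 2.22 to 19.2), with 3 at Socs3, an inhibitor of cytokine signalling, 6.65 to 28.3 kb downstream of its start.

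Lists of other cell types and functions ranged widely. Of 34 protocadherin and cadherin genes 9 had a member (26.5%, interval 12.9 to 44.4), yet their median territory was 803 kb and they had 0.491 members per Mb. Axon guidance and adhesion genes (15 of 82) had 0.451 per Mb, homeobox and patterning factors (15 of 94) 0.630 and ion channels and neurotransmitter receptors (6 of 69) 0.514, all under the 1.08 of all genes. In homeobox and patterning factors the strongest members, near Bcl11a (11.4 and 9.41), Gata6 (8.87 and 9.60), Sox3 (8.14 and 8.03) and Isl1 (4.88 and 7.15), were 37.4% to 100% repeat. Astrocyte marker genes had members at 4 of 20 (20%, interval 5.73 to 43.7, 1.63 per Mb), namely Sox9, Nr2e1, Fgfr3 and Slc1a3. This share was above that of growth factor genes, but its interval overlaps theirs (8.07 to 29.8). Under the reciprocal overlap of 0.5 it was 0%. Neuron markers had a member at 1 of 22 (Stmn2) and microglia and endothelial markers at 1 of 22 (Ptprc). Sox9 and Fgfr3 are also used by oligodendrocyte precursors. Extracellular matrix and integrin genes had members at 8 of 76 (10.5%, interval 4.66 to 19.7, 1.46 per Mb). Krueppel-type Zfp genes had them at 24 of 365 (6.58%, interval 4.26 to 9.63, 2.07 per Mb). Both intervals contain the 5.16% of all genes, and both densities were above 1.08 per Mb. The counts were 10 of 157 for G protein-coupled receptor genes, 17 of 371 for solute carrier genes and 2 of 79 for ribosomal protein genes. Olfactory and vomeronasal receptor genes had members at 12 of 1479 (0.811%, 0.420 to 1.41), and the 39 Hox genes had none (0%, 0 to 9.03), with a median territory of 0.352 kb.

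**Figure D3:**
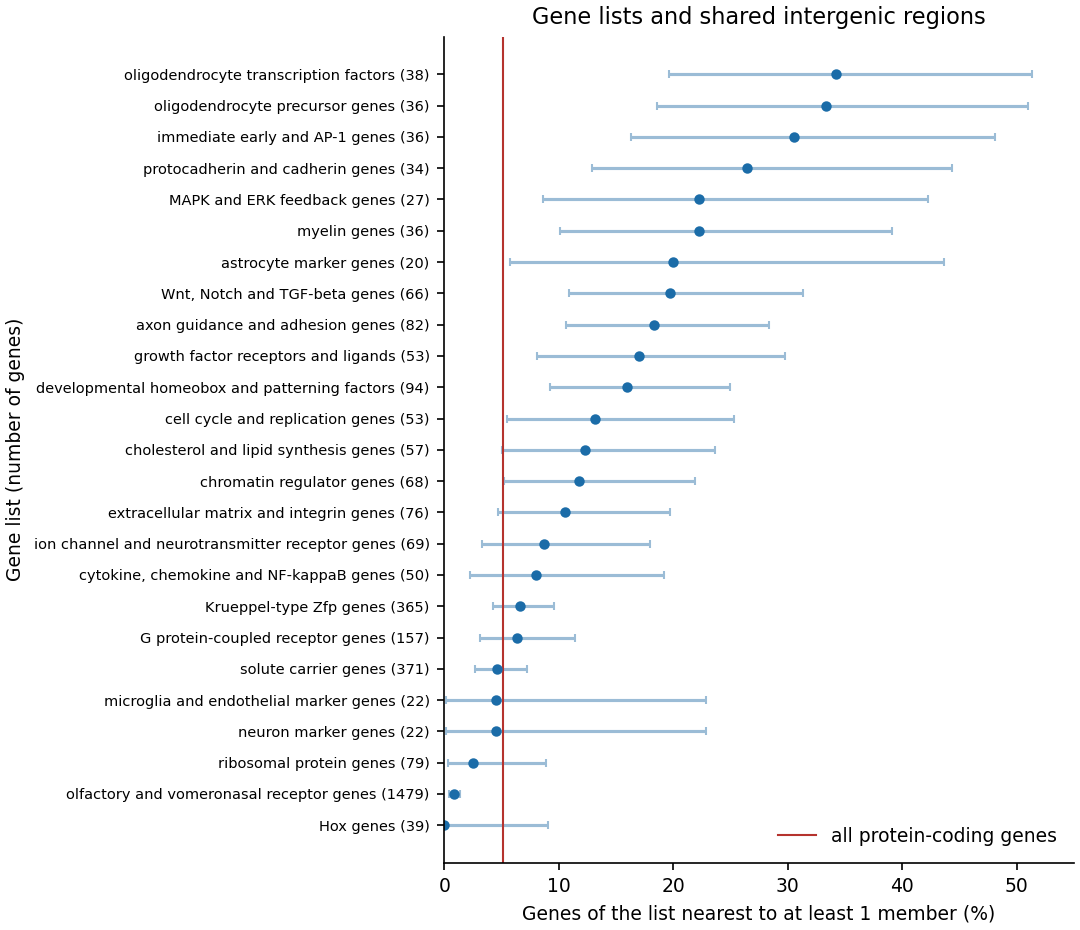
Share of the genes of each list (%) that are the nearest protein-coding gene of at least 1 member, with 95% exact binomial intervals and the number of genes in brackets; the line marks the 5.16% of all protein-coding genes. Oligodendrocyte transcription factors (34.2%), precursor genes (33.3%) and immediate early genes (30.6%) are highest, and olfactory receptors (0.811%) and Hox genes (0%) lowest, without correction for territory. With −log10 q of 5 or more required in each list the shares of the first 3 were 2.63%, 5.56% and 0%.

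Over all 25 lists, 212 of 3383 genes had a member, and 292 members had a listed nearest gene while 1201 had none. Shares by list count genes that differ in territory, and neighbours share regions, so no test was applied. The nearest gene is a label by position alone.

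Members were spread unevenly over the chromosomes. Chromosome 5 held the most (164, or 2.30 per intergenic Mb), and chromosome 15 had the highest density (124, or 2.41 per Mb), followed by chromosome 10 (1.93) and chromosome 11 (1.83). Chromosomes 3, 7, 8, 13 and 14 had 0.622 to 0.739 per Mb, and X and Y about 0.100 each. The density of all intergenic regions followed another order. It was 41.9 per Mb on chromosome 15, 34.4 on chromosome 10 and 26.6 on chromosome 1, which had 1.51 members per Mb. It was only 19.5 on chromosome 5 and 17.2 on chromosome 11, and 3.94 on chromosome 8 and 0.538 on X. The share of intergenic regions in both lists was 5.76% on chromosome 15, 5.60% on chromosome 10 and 5.68% on chromosome 1, the 3 densest, and it was 16.7% on chromosome 8 and 15.7% on chromosome 14.

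The members of chromosome 5 were weak as well as many. Their median strength was the 6.36th percentile, with median fold enrichments of 2.89 and 2.79, while over all members the median was the 37.2nd percentile. Chromosome 15 came next from below, at the 20.3rd percentile. In windows of 5 Mb, of which 424 of 557 held a member and the median held 2, the densest lay on chromosome 5 between 15 and 20 Mb with 33 members among 217 intergenic regions. These 33 had median fold enrichments of 2.65 and 2.54, and their 9 nearest genes included Hgf, Gnai1, a G protein subunit gene, Magi2 and Speer4f2. The next were the window from 40 to 45 Mb with 19 members, all nearest to Rab28 or Hs3st1, and that from 20 to 25 Mb with 18, which included 5 near Kmt2e, a chromatin regulator gene. The window from 30 to 35 Mb, with Fosl2, Ppp1cb and Kcnk3, held 13 members at a median of the 0.599th percentile. Of the 33 members between 15 and 20 Mb, 10 had over 50% of their 32-base words at more than 1 place, and none of those between 20 and 25 or 40 and 45 Mb had. On chromosome 15 the window from 85 to 90 Mb held 16 members, 4 of them near Wnt7b.

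**Figure D4:**
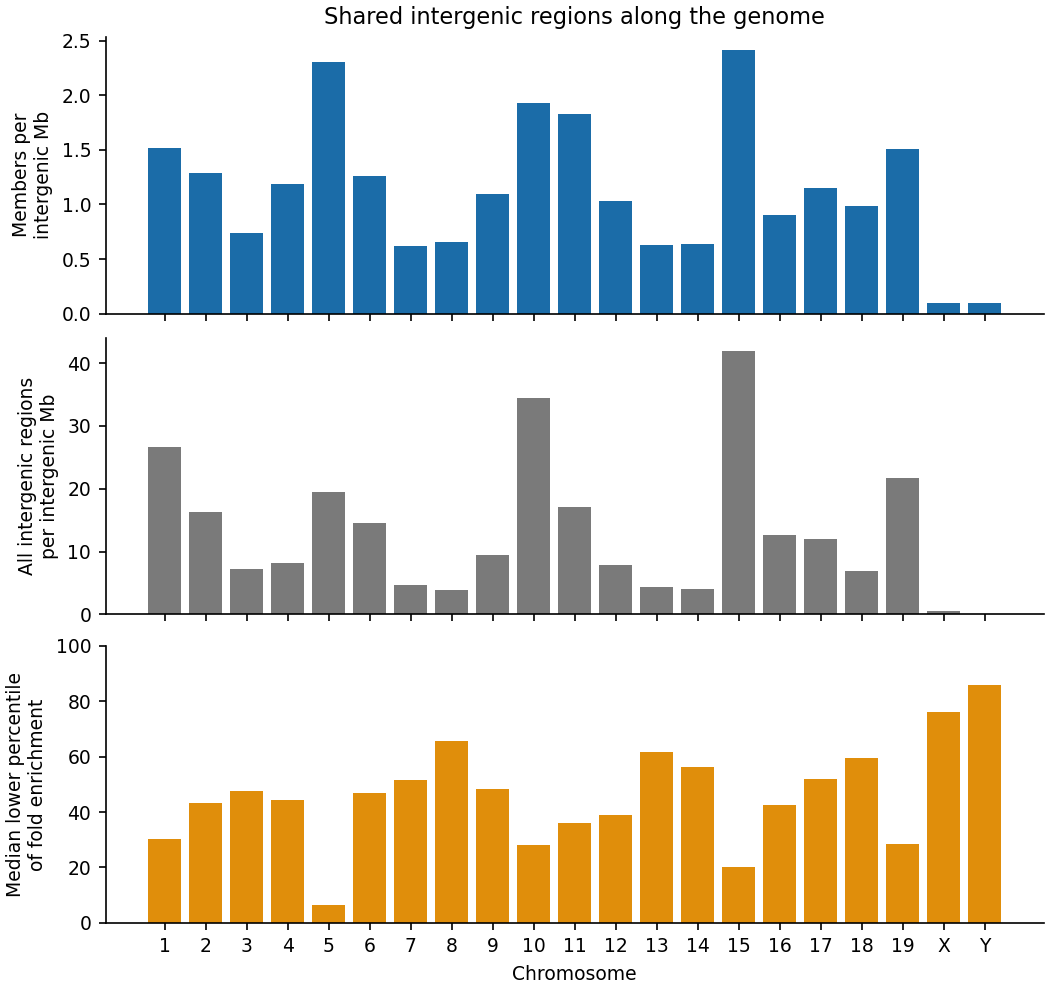
Members per Mb of intergenic sequence (top), all intergenic merged regions per Mb (middle) and median strength of the members as the lower of their 2 percentiles of fold enrichment (bottom), by chromosome. Chromosomes 5 and 15 are densest in members, at 2.30 and 2.41 per Mb, and lowest in median percentile, at 6.36 and 20.3.

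Fold enrichments in proliferating and differentiating cells were close in most members, which is in part set by the rule. A member needs a peak in each list, so a region called in 1 state alone is left out. The same holds for all shared regions, used here as background. The ratio of the differentiating to the proliferating value had a median of 0.959 (5th to 95th percentile 0.738 to 1.25), and it was 0.95 over all shared regions. By rank within each list, 808 members (54.1%) stood higher in the differentiating list, beside 51.6% of all shared regions. The differentiating value was at least 1.5 times higher in 8 members (0.536%, interval 0.232 to 1.05), beside 0.582% of all shared regions, and at least 1.5 times lower in 28 members (1.88%, 1.25 to 2.70), beside 2.52% of all shared regions. Both shares are near those of the background. The Spearman correlation across the members was 0.557, a description of 1493 regions that share 2 libraries, and it was 0.505 over all shared regions.

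The largest differences toward proliferating cells were at a region 175 kb from Ndst4, a heparan sulfate enzyme gene (10.3 and 4.81), one 26.3 kb from Rpp21, of the tRNA processing enzyme RNase P (6.44 and 3.07), and one 8.86 kb from Fam213b (6.95 and 3.40). Toward differentiating cells they were at a region 610 kb from Map3k7, a kinase gene of TGF-beta signalling (3.90 and 6.82), one 38.2 kb from Bdkrb2, a bradykinin receptor gene (3.55 and 5.82), and one 150 kb from Tmem260 (3.65 and 5.69). These were picked after their values were seen. Without a second library of either state it cannot be told apart whether such a gap belongs to the state or to the library. Among the named oligodendrocyte genes the values were close at Mog (3.67 and 3.63), Olig2 (3.09 and 2.90) and Pdgfra (2.95 and 2.96). They lay further apart at members of Zeb2 (4.28 and 2.96, percentiles 93.0 and 30.9), Hes1 (4.14 and 3.10, percentiles 90.7 and 46.7), Enpp6 (3.19 and 3.84, percentiles 36.0 and 89.1) and Nfasc (percentiles 36.1 and 79.9).

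Motif matches in the central 300 bases differed among the classes by motif. The window of a shared region was centred on the longest stretch that both lists covered, if any, and that of other regions on their middle. The lower quartile of width was 279 bp in intergenic regions of 1 list, so many of their windows reach outside the peak. Each motif was searched as plain letters on both strands, and a match is a description and not a binding site. The E-box CAGCTG, bound by bHLH factors, was present in 21.0% of members (interval 19 to 23.2), against 13.1% (12.6 to 13.6) of intergenic regions of 1 list, 23.1% of shared genic and 14.7% of shared promoter regions and 15.3% of all merged regions. The E-box CATATG, used by Olig factors, went the other way in these windows, with 5.63% (4.51 to 6.92) against 8.91% (8.47 to 9.37), and 6.86% of all merged regions. The SOX motif ACAAAG was in 26.6% of members, 25.8% of intergenic regions of 1 list and 23.6% of all merged regions. The second SOX motif, ACAATG, was in 16.7%, 17.8% and 15.2%. The TEAD motif GGAATG was in 17.6% and 16.5%, and the AP-1 motif TGANTCA in 8.51% and 9.64%, of members and of intergenic regions of 1 list, respectively.

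Motifs that hold CpG or are rich in GC stood between the intergenic regions of 1 list and the promoters. The GC box GGGCGG was in 10.9% of members (9.32 to 12.5), in 2.89% of intergenic regions of 1 list and in 62.4% of shared promoter regions. The ETS motif CGGAAG was in 7.37%, 3.07% and 26.9%, and the E-box CACGTG, bound by Myc and Usf factors, in 5.43%, 2.87% and 7.39%. The homeobox motif TAATTA, rich in A and T, was in 6.56% of members, 9.12% of intergenic regions of 1 list and 1.18% of promoter regions. The CRE TGACGTCA, which holds CpG, was rare, in 0.402%, 0.135% and 1.60%. The RUNX motif TGTGGT was in 18.6% of members and 20.4% of intergenic regions of 1 list, the NF-Y motif GATTGG in 9.31% and 10.5%, and the CTCF core CCANNAGGG in 4.82% and 4.43%. The NFI palindrome was in none of the 1493 windows, which allows a share of up to 0.247%. Over whole regions, where members are wider, every one of the 15 motifs was in a larger share of members than of intergenic regions of 1 list. The order seen in the windows thus turned for CATATG (25.2% and 18%), TAATTA (27.6% and 18.1%), AP-1 (37.4% and 19.5%), RUNX (58.5% and 38.0%), NF-Y (34.1% and 21.3%), the second SOX motif (51% and 34.1%) and NFI (0.201% and 0.0513%). The median GC content of the windows was 48.0% in members, 43.3% in intergenic regions of 1 list, 52.3% in shared genic and 67.0% in shared promoter regions, and its part in the motif shares was not tested.

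**Figure D5:**
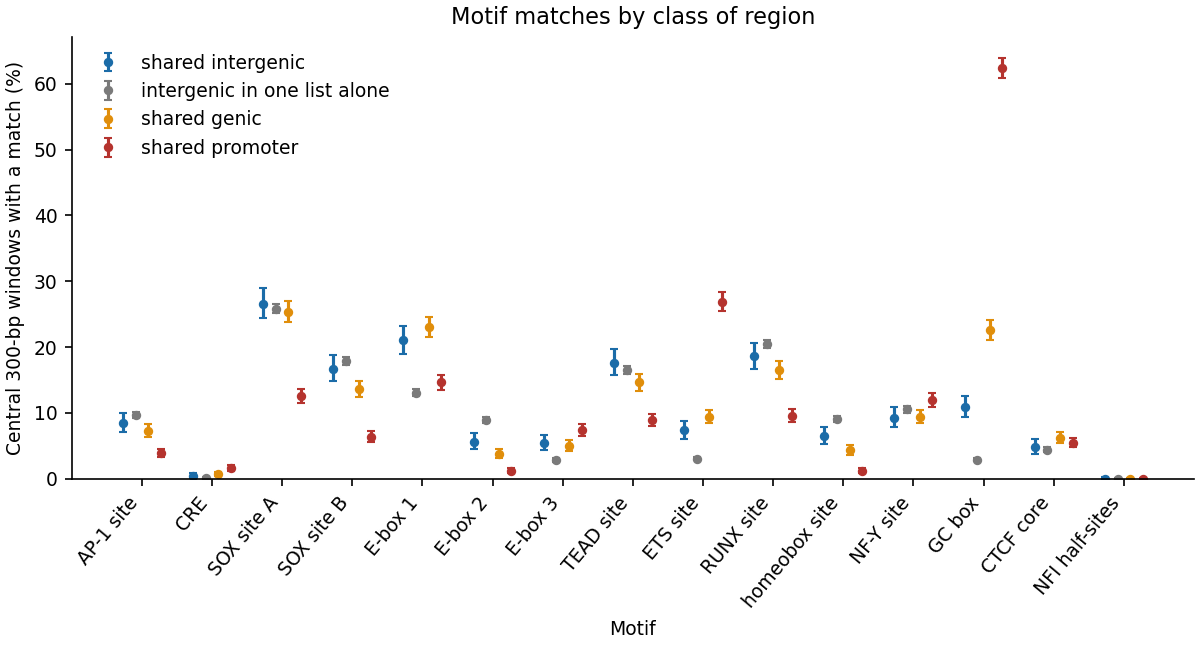
Share of central 300-base windows (%) with at least 1 match to each of 15 motifs in members (blue), intergenic regions of 1 list (grey), shared genic (orange) and shared promoter regions (red), with 95% exact binomial intervals; E-box 1, 2 and 3 are the E-boxes in the order in which the text names them. Promoter regions are highest for the GC box at 62.4% and members lie at 10.9%.

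The labelled cell type was compared with promoter peaks of marker genes. Of 6 oligodendrocyte lineage markers 3 had a promoter peak in the proliferating and 5 in the differentiating list, and Nkx2-2 had none. Of 4 astrocyte markers Slc1a3 had one in the proliferating list, of 4 neuron markers Syt1 in the differentiating list, and of 4 microglia and 4 endothelium markers none had any. The share over all protein-coding promoters is not given here, so these counts are a description only. The lists held 28924 and 27965 peaks with median widths of 652 and 755 bp.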

How the data were processed

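H3K27ac ChIP-seq of 2 Oli-neu libraries was analysed from the deposited peak lists. Per the labels and the methods of the study, the authors aligned reads to GRCm38/mm10 with Bowtie2 2.1.0, kept uniquely mapped reads, removed PCR duplicates with SAMtools, called broad peaks with MACS2 2.0.10 in each library and removed blacklisted regions with bedtools. An input library is not given in the sources used here. The lists have no header, and 3 numbers per peak were taken, in the caller's own column order, to be the fold enrichment as a ratio, the −log10 p-value and the −log10 q-value of the deposited peak. The deposited lists also hold peaks with q above the 0.05 that the methods name. They give no counts, so the depth behind a peak is unknown.

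Overlapping or touching peaks were merged, and a region took the highest fold enrichment among its peaks of each list. Genes came from GENCODE M21 (55450 genes, 21951 protein-coding), with 1 TSS per gene, and distance was measured from the nearer region edge. Bases, repeat marks and word counts came from RefSeq GRCm38.p6, with words of 32 bases sampled every 10 bases and exact words of 16 bases for mitochondrial and ribosomal matches. Shares have 95% Clopper-Pearson intervals, which cover counting error only. A share of 0 is limited by the upper end of the same interval. Merging, classes and distances were tested on simulated data. Members, gene lists and motifs were chosen with earlier results of these data known.

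Genes were named by a rule: the 5 strongest, 5 widest and 5 farthest members, the 6 genes with most members, up to 4 genes per list with most members, and members at the limits of the rule. Others, and the sequences near Mog, Olig2 and Pak3, were chosen after their values were seen. Some items that the rule selects are not reported here. Python 3.11.15, numpy 2.4.6, pandas 2.3.3, scipy 1.17.1, numba 0.67.0 and matplotlib 3.10.9 were used.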

Additional observations from a re-analysis of the deposited data

How the results depend on the processing

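Of 25 list values, 23 moved with the stricter peak threshold, 19 with genes of every biotype and 7 with the reciprocal overlap, and 14 of 15 motif values moved on whole regions. A reciprocal overlap of at least 0.5 left 807 members, 16.7% of shared regions, with 691 nearest genes, and 3.87% of listed genes had a member, against 6.27% in the main setting. Where each list had to reach 5 in −log10 q, these were 128, 19.4%, 122 and 0.857%, the median distance was 65.6 kb, and 61.7% of members lay within 100 kb. At that threshold 0% of myelin, growth factor, MAPK feedback and immediate early genes had a member, and at the reciprocal overlap 0% of astrocyte genes. The intergenic share of shared regions, 17.7% in the main setting, was 16.8% with promoters reaching 6000 bp upstream (median distance 53.2 kb), 23.8% when only protein-coding genes counted as genes (7.74% of listed genes), 16.5% with a margin of 1000 bp around genes and 16.3% without regions over 50% repeat. With the TSS of every transcript the median distance was 41.6 kb and 70.1% of members lay within 100 kb, and with genes of every biotype 15.2 kb and 94.2%, and 1.95% of listed genes. At 2-fold, 0 members were higher in differentiating and 3 in proliferating cells. At least 1 of the motifs was in 81.8% of windows, in 97.2% of whole regions and in 84.5% of windows without regions with over 50% of words at several places, a setting added after seeing the data. Other counts and distances kept within 1.5 times or their interval, and of 330 values for single lists and motifs 264 did.

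No paired analysis was possible because the 2 libraries carry no pairing; the ATAC-seq samples that share replicate numbers were not analysed. Each state has 1 library, and leaving one out gives no value.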
